A study of Zea mays with 448 samples.

Results

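The genes described here are zfl1 (GRMZM2G098813) and zfl2 (GRMZM2G180190), the duplicate maize homologs of LEAFY, found by their identifiers among the 53921 gene models with a segregating site, so 2 of 53921. LEAFY in Arabidopsis and its ortholog floricaula in Antirrhinum encode a plant-specific transcription factor that gives a young lateral meristem its floral identity and switches on the MADS-box genes that specify the floral organs. In maize the duplicates are known to act in inflorescence branching and in flower formation, and zfl2 has been put forward as a candidate gene for ear structure in domestication. A cis difference between maize and teosinte is expected to shift the ratio of the alleles inside an F1 hybrid, whereas a trans difference shifts the ratio between the inbred parents but not that inside the F1.

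RNAseq read depths at segregating sites were available for F1 hybrids between maize inbreds and teosinte (Zea mays ssp. parviglumis) inbreds, 29 crosses in all, and for the inbred parents themselves, 6 maize and 9 teosinte. Immature ear, seedling stem with the shoot apical meristem, and seedling leaf were sampled, with no treatment. The ear libraries of F1s and of maize inbreds came from single ears, whereas several of the small ears of a teosinte plant were pooled. The F1 libraries numbered 59 in ear, 56 in stem and 57 in leaf, and the inbred libraries 30, 29 and 29. Per the paper's methods, F1 and parent libraries were pooled and sequenced separately. An F1 library held 813130 to 2682320 allele-assigned reads in ear, 1267297 to 3173318 in stem and 1059009 to 2990731 in leaf. At the pooled depth, 3 reads in the 21 ear libraries of zfl2 crosses correspond to 0.0961 CPM (CPM are the reads at the sites of a gene per 1e6 allele-assigned reads of the same libraries). One cross, B73xTIL01, had a maize share of up to 80.8% of its reads in leaf, and it has no site in either gene. The tissues matched their labels: the 4 leaf markers that could be tested were lower in ear than in leaf, the 3 meristem homeobox genes were higher in ear and in stem than in leaf, and the 3 ear markers that could be tested, of 8 listed, were higher in ear than in leaf or stem.

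The sites decide what can be said about each duplicate. zfl1 had 3 segregating positions within 9 bases, chr10:140854348-140854356 (AGPv2), at positions 898, 899 and 906 of its transcript GRMZM2G098813_T04. They distinguish the alleles in only 2 crosses, CML103xTIL03 and Ki3xTIL03, so all teosinte information on zfl1 comes from TIL03. zfl2 had 9 positions over 2194 bases, chr2:12641820-12644013 (AGPv2), between positions 641 and 1646 of GRMZM2G180190_T01, and these served 9 crosses of 5 maize and 4 teosinte inbreds. The median gene model had 5 sites and was measured in 10 crosses. No cross segregated for both genes, so the allele ratios of the duplicates were never measured in the same F1.

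The zfl2 differences are named with the maize base first, then the position counted from the start of the transcript, then the teosinte base. Across the 4 crosses of TIL14 the sites were C961T and C1018G. They lie 57 bases apart in the transcript but 1245 bases apart in the genome, so 1188 bases between them are not in the transcript. The crosses of TIL09 used G1090T, C1318A, an insertion or deletion at position 1422 and G1432C, in different combinations. Oh43xTIL10 used C1555G and A1646C, and Oh43xTIL15 used A641G alone. At zfl1 the difference at position 906 was G906A and the other positions were insertions or deletions. A read that spans neighbouring sites adds to the depth of each, so the counts below are depths at sites and not numbers of molecules. In Ki3, for example, the zfl1 positions 898 and 906 had the same depths, 15 and 15 in one ear library and 1 and 1 in the other.

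Both duplicates had their highest level in ear. In F1 ears zfl1 had 13 reads in 3 libraries, against 2 reads in 4 stem libraries and 1 read in 4 leaf libraries. The pooled levels were 2.98 CPM in ear, 0.256 CPM in stem and 0.158 CPM in leaf. The filter on low counts removed zfl1 from edgeR's quasi-likelihood test with the cross as a block. Without that filter the log2 difference of zfl1 was 1.32 ± 0.51 (SE) for ear against stem (adjusted p = 0.0358) and 1.35 ± 0.55 for ear against leaf (adjusted p = 0.0385), and neither was called at 0.005. That fit covered 29 crosses, 27 of them without a zfl1 site. Its differences were smaller than those of the pooled levels, 11.6-fold over stem and 18.9-fold over leaf. In the inbreds of those crosses, CML103, Ki3 and TIL03, zfl1 had 77 reads in 6 ear libraries and 0 reads in 5 stem and in 5 leaf libraries. The same reads were counted at several of the neighbouring sites, so these depths stand for fewer molecules than their number, and no interval is given for them.

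zfl2 was detected in all 21 F1 ear libraries of its crosses, at 0.748 to 59.0 CPM with a median of 6.72. It had reads in 15 of 17 stem libraries, at 0 to 13.5 CPM with a median of 2.35, and in 5 of 17 leaf libraries, at 0 to 5.69 CPM with a median of 0. The ranges of the tissues overlapped, and the comparison was made within crosses. By edgeR's quasi-likelihood test with the cross as a block, zfl2 was 3.02 ± 0.34 (SE) log2 units higher in ear than in leaf (adjusted p = 6.78e-13), where 32.8% of 21121 genes were called higher in ear. It was 1.05 ± 0.25 higher in ear than in stem (adjusted p = 0.000172), where 23.0% of genes were called higher in ear. It was 1.97 ± 0.37 higher in stem than in leaf (adjusted p = 2.29e-06), a direction called for 31.6% of genes. In these bulk samples fewer cells that express a gene and less RNA per cell cannot be told apart.

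Within the 9 crosses that have a zfl2 site, the same fit gave 3.44, 1.15 and 2.29, all called. DESeq2 over all 29 crosses called none of the 3 differences (1.07, 0.71 and 0.36, with adjusted p of 0.156, 0.420 and 0.738), while DESeq2 over the 9 crosses called all of them, at 3.62, 1.17 and 2.45. Without replicate 1 the ear against stem and the stem against leaf differences missed the threshold of 0.005, with adjusted p of 0.0414 and 0.0111 by edgeR.

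**Figure D1:**
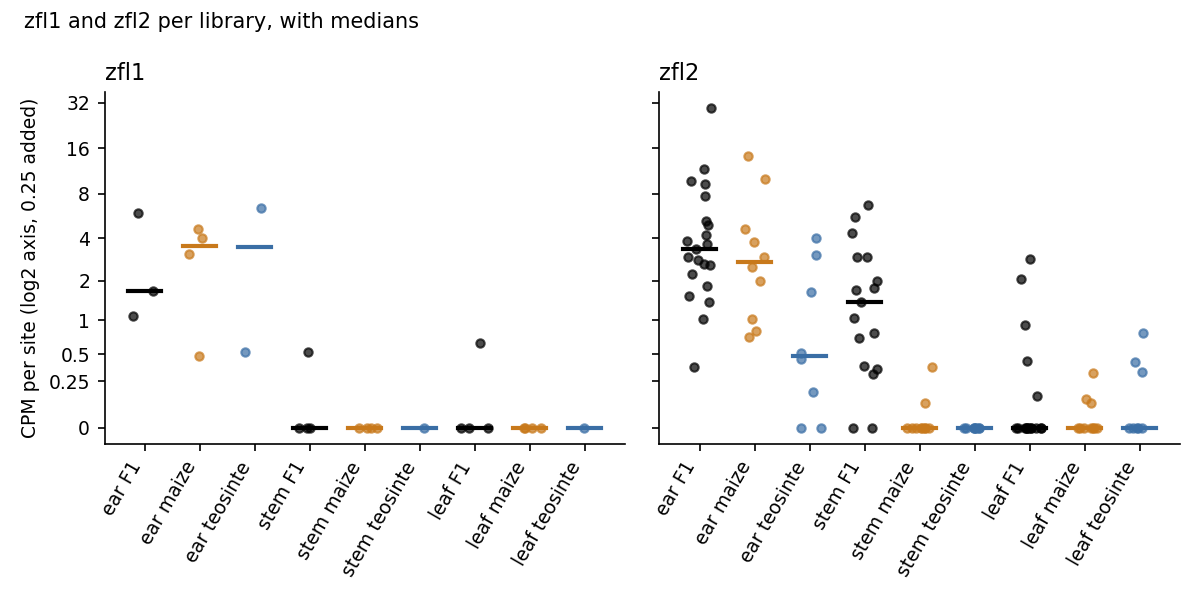
CPM per site in each library (points, log2 axis) for zfl1 (left) and zfl2 (right) in F1s, maize inbreds and teosinte inbreds of the crosses with a site, with bars at the medians. The 21 F1 ear libraries of zfl2 all lie above 0, whereas 12 of 17 F1 leaf libraries and all 8 teosinte stem libraries are at 0.

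Maize relatives of genes known to act downstream of or beside LEAFY in Arabidopsis were mostly higher in ear than in either seedling tissue. Of 30 floral symbols listed, those paired with an identifier gave 18 gene models, and 15 of these were deep enough to test. In ear against leaf 14 of the 15 were higher and 1 was lower, with a median difference of 6.95 log2 units against -0.07 over all genes tested, of which 32.8% were called higher in ear. In ear against stem the counts were again 14 higher and 1 lower, with a median of 6.64, where 23.0% of all genes were called higher in ear. The APETALA1-like zap1 was 9.08 log2 units higher in ear than in leaf and 9.43 higher in ear than in stem. The AGAMOUS-like zag1, a C-class organ identity gene, was 4.57 and 5.48 higher, and the SEPALLATA-like zmm24 was 9.59 and 7.76 higher. The exception was zcn6, a member of the centroradialis family of floral repressors, with log2 differences of -6.24 for ear against leaf and -4.67 for ear against stem. Between stem and leaf 4 of the 15 were higher in stem, where 31.6% of all genes were called higher in stem, 1 was lower and 10 were not called. Among the 4 were the B-class genes si1 (3.60) and zmm16 (1.03) and the SEPALLATA-like zmm24 (1.83). For zagl1, a SOC1-like gene, the stem against leaf difference was -1.46, and it was the gene lower in stem.

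In F1 ears the maize and teosinte alleles of zfl2 had 155 and 123 reads summed over the 9 crosses, a maize share of 55.8%. The maize allele was the higher one in 6 crosses and the teosinte allele in 3. The log2 ratio of maize to teosinte depth was 0.33, and the exact binomial test on summed depth gave p = 0.0628 before adjustment. Its Storey q, which can lie below p where many genes differ, was 0.0247, short of the false discovery rate of 0.005 used for calls. At that rate 56.8% of 16801 genes were called. With the cross as the unit the ratio was 0.52 ± 0.41 (SE) by edgeR (adjusted p = 0.438), where 5.14% of 17671 genes were called. That fit covered 28 ear crosses, of which 9 have a zfl2 site. Within those 9 the ratio was 0.58 ± 0.44 by edgeR (adjusted p = 0.572) and 0.90 ± 0.52 by DESeq2 (adjusted p = 0.367). DESeq2 over all crosses gave 0.33 with an SE of 2.76, and none of these was called. The summed alleles were thus not shown to differ beyond the spread between crosses, and the crosses themselves lay far apart.

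The crosses of TIL14 carried most of the 278 ear reads, 101 of maize and 103 of teosinte. In CML103xTIL14 the alleles had 28 maize and 53 teosinte reads (exact binomial p = 0.00728, 0.0203 after Benjamini-Hochberg adjustment over the 9 crosses). In B73xTIL14 they had 38 and 20 (exact p = 0.0247, adjusted 0.0445). These crosses differ only in the maize parent, and their deviations ran in opposite directions. Mo17xTIL14 had 26 maize and 16 teosinte reads and Ki3xTIL14 had 9 and 14, and neither passed the exact test. These exact p-values take the depth at a site as the unit, so a read that counts at both sites enters more than once, and they leave out the spread between plants, both of which make them too small. Single libraries agreed in direction within CML103xTIL14, with 18 maize against 30 teosinte reads in one and 10 against 23 in the other, and within B73xTIL14, with 10 against 7, 5 against 3, 8 against 1 and 15 against 9. An exact permutation of the 10 libraries over the 4 crosses gave p = 0.0270 for a difference in maize share among crosses.

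The crosses of TIL09 were tilted toward maize, with 38 maize and 10 teosinte reads in all. Mo17xTIL09 had 10 and 0 (exact p = 0.00195, adjusted 0.0176), which is at least 3.33-fold higher for maize with a floor of 3 reads. B73xTIL09 had 25 and 9 (exact p = 0.00904, adjusted 0.0203), and Ki3xTIL09 had 3 and 1. The tilt was not the same at each site. G1090T in B73xTIL09 had 10 maize and 8 teosinte reads, whereas position 1422 had 11 and 0 in the same cross. The TIL09 inbred itself had 5 ear reads at position 1090 and 0 reads at positions 1318, 1422 and 1432. Oh43xTIL15 had 9 maize and 0 teosinte reads at A641G (exact p = 0.00391, adjusted 0.0176), at least 3-fold higher for maize, and the TIL15 inbred had 0 ear reads there. In Oh43xTIL10 the alleles had 7 maize and 10 teosinte reads. The cause of the missing teosinte reads at these sites, in F1s and inbreds alike, was not tested.

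**Figure D2:**
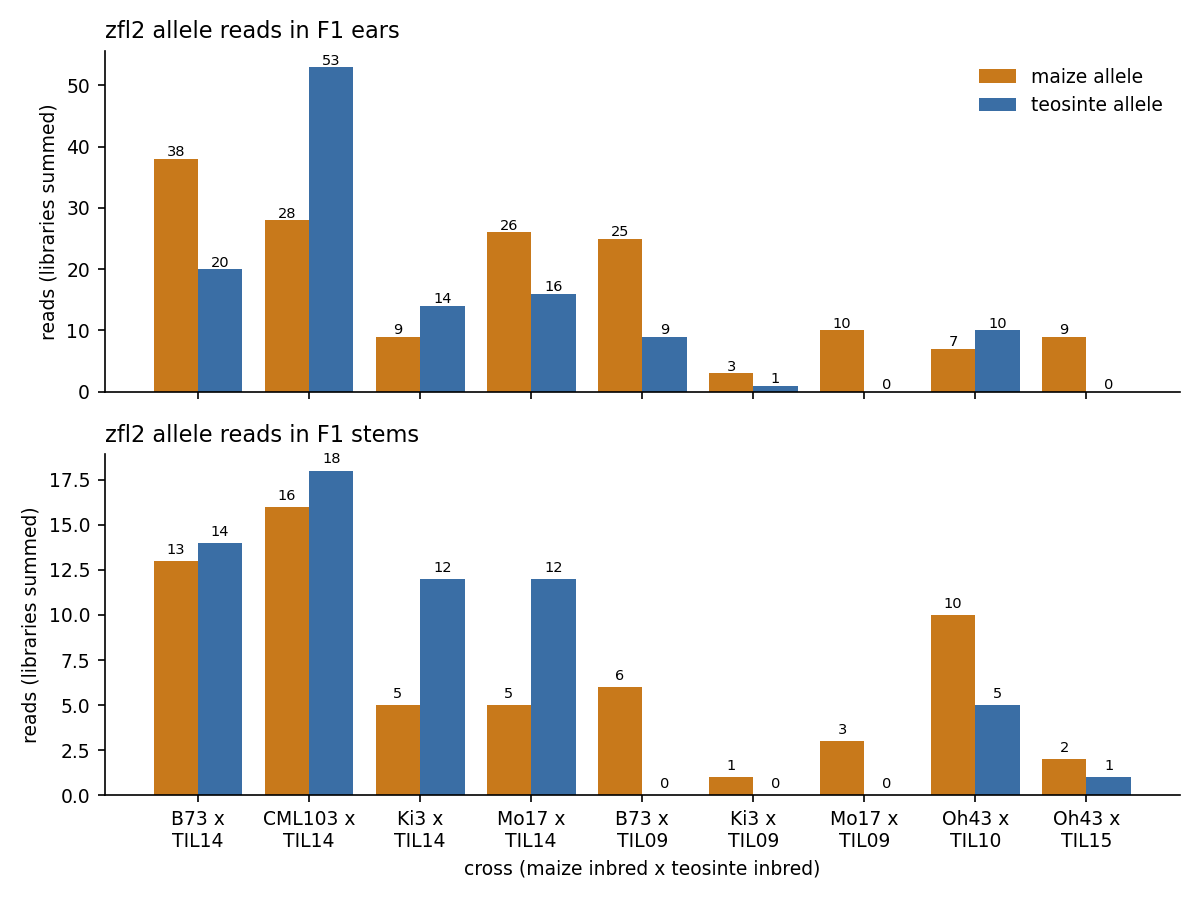
Reads of the zfl2 maize and teosinte alleles in F1 ears (top) and F1 stems (bottom), summed over the libraries of each of the 9 crosses. In ears CML103xTIL14 has 28 maize and 53 teosinte reads and B73xTIL14 has 38 and 20, while Mo17xTIL09 and Oh43xTIL15 have no teosinte read.

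In F1 stems zfl2 had 61 maize and 62 teosinte reads, with maize higher in 5 crosses and teosinte in 4. No cross passed the exact binomial test after adjustment over the 9 crosses, the lowest adjusted p being 0.281 in B73xTIL09 with 6 maize and 0 teosinte reads. The crosses of TIL14 had 39 and 56, those of TIL09 had 10 and 0, Oh43xTIL10 had 10 and 5 and Oh43xTIL15 had 2 and 1. CML103xTIL14, which deviated most toward teosinte by number of reads in ear, had 16 and 18 in stem. By edgeR over all crosses the stem ratio was 0.10 ± 0.44 (adjusted p = 0.913), where 4.32% of 18450 genes were called. Within the 9 crosses with a zfl2 site it was 0.15 ± 0.46 by edgeR (adjusted p = 0.914) and 0.48 ± 0.60 by DESeq2 (adjusted p = 0.826). The exact permutation over the 8 stem libraries of the TIL14 crosses gave p = 0.4 for a difference in maize share among them. Whether the allele ratio of CML103xTIL14 differs between ear and stem was not tested. Leaf had 11 maize and 10 teosinte reads in all, 16 of the 21 from CML103xTIL14, too few for a ratio.

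zfl1 gave 8 maize and 5 teosinte reads in F1 ears, 6 and 2 in CML103xTIL03 and 2 and 3 in Ki3xTIL03. In stem it had 0 and 2 and in leaf 0 and 1. A difference between its alleles was not detectable at this depth. Of the 6 combinations of gene and tissue, zfl2 in ear was the only one to reach a depth of 100 in F1s and in parents, which the genome-wide tests required.

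Among the parents zfl2 was higher in maize ears. Maize inbreds had 281 reads in 10 ear libraries, all with reads, and teosinte inbreds had 31 reads in 8, of which 6 had reads. Per site, the maize libraries ran from 0.717 to 14.2 CPM with a median of 2.74, and the teosinte libraries from 0 to 4.04 with a median of 0.481. The groups overlapped, and the inbreds within each group were far apart. By this measure Mo17 had 10.03 and 14.2 CPM per site in its libraries, and Oh43 had 0.806 and 1.02. TIL14 had 3.06 and 1.64, TIL10 had 0.447 and 4.04, TIL09 had 0.174 and 0.514, and TIL15 had 0 in both. Each inbred was read at its own positions and divided by its reads at the sites of all its crosses. These levels are therefore not on one scale and do not rank the inbreds or the groups. At C961T and C1018G, in the pairs with TIL14, Mo17 had 62.4 CPM, B73 42.7, CML103 18.9 and Ki3 12.1. In the same pairs TIL14 had 8.98 to 9.40 CPM.

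With the inbreds put on one scale, the parental depths were 251 for maize and 61 for teosinte, a log2 ratio of 2.04 (exact binomial q = 2.20e-28). Of 16801 genes, 67.9% were called by this test, whose unit is the depth at a site. With the library as the unit, edgeR gave 1.64 ± 0.56 (adjusted p = 0.0572), which was not called at 0.005, where 5.02% of 17079 genes were called. The adjusted p was 0.0293 by DESeq2, 0.265 with the libraries of each inbred summed, and 0.639 without replicate 1, so the maize excess among parents rests on the test of summed depth. For zfl1 the inbred ears had 46 maize reads and 31 teosinte reads. Its replicate libraries disagreed, with 30 and 2 reads in Ki3 and 3 and 28 in TIL03.

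The F1 ratio of zfl2 in ear was smaller than the parental ratio. The difference, which measures the trans part, was 1.71 log2 units (Fisher's exact test q = 2.16e-10), where 47.6% of 16801 genes were called. That test works on summed depths, so it leaves out the spread between plants, inbreds and crosses. It also counts a read that spans neighbouring sites more than once. No test of the difference that includes this spread was run, and edgeR did not call the parental ratio (adjusted p = 0.0572). By the rules of the study, which use the tests of summed depth, the gene fell in the trans only category. The maize share in the F1 was below that of the parents in 7 crosses and equal to it, at 100%, in the other 2. It ran from 34.6% to 100% over F1s with a median of 65.5%, and from 56.3% to 100% over the parental pairs with a median of 86.1%. In each of the 9 pairs the maize parent had the higher level at the sites of the cross. The pairs share parents, and TIL14 is in 4 of them. Ki3xTIL09 was lower through 1 teosinte read, with 3 maize and 1 teosinte F1 reads against 9 and 0 in the parents. In Ki3xTIL09, Mo17xTIL09 and Oh43xTIL15 the teosinte parent had 0 reads, so the F1 share could not exceed that of the parents.

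The category depended on a single cross. Without CML103xTIL14 the F1 depths were 127 maize and 70 teosinte, a log2 ratio of 0.86 with q = 3.89e-05, and the gene became cis and trans. The trans part was then 1.31 (Fisher's exact test q = 2.90e-05). At a false discovery rate of 0.05 the gene was also cis and trans. That cis call came from q = 0.0247, while the exact binomial p before adjustment was 0.0628. Without all crosses of TIL14, F1s had 54 maize and 20 teosinte reads, below the depth required, and the trans part was 0.61, untested.

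**Figure D3:**
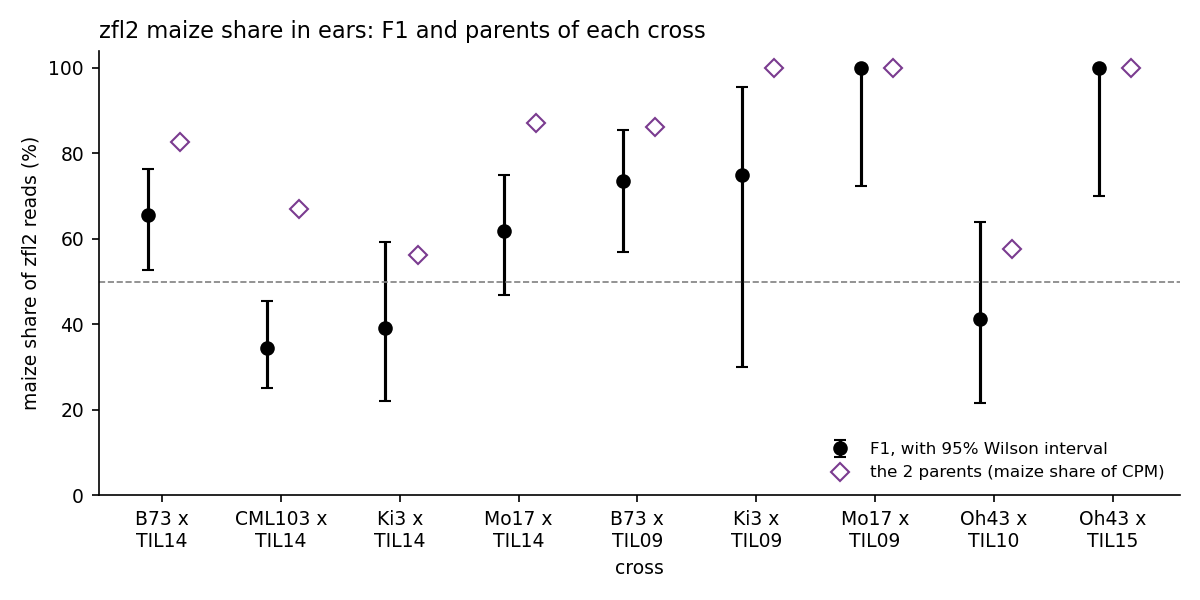
Maize share of zfl2 reads in F1 ears (filled circles, 95% Wilson intervals for counting error, too narrow where a read counts at both sites) and in the parents of the same cross (open diamonds, maize share of CPM), for the 9 crosses. The F1 lies below its parents in 7 crosses and both are at 100% in Mo17xTIL09 and Oh43xTIL15.

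The overall level of zfl2 in F1 ears was close to that of the parents. The log2 ratio of the F1 to the mean of its parents at the sites of the cross (0.5 reads added) was -0.09 ± 0.85 (SD, n = 9), with the F1 higher in 4 crosses and lower in 5 (exact sign-flip permutation, two-sided p = 0.715). CML103xTIL14 had 81 F1 reads against 32 and 15 in its maize and teosinte parents, and a ratio of 1.18. Mo17xTIL14 had 42 against 98 and 15, and a ratio of -1.36. For zfl1, F1 ears of CML103xTIL03 had 8 reads against 14 and 11, and those of Ki3xTIL03 had 5 against 32 and 20. Both ratios were below 0, at -1.28 and -1.90, and 2 crosses cannot give an exact p below 0.5.

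In stem, by contrast, zfl2 was measured mainly in F1s. As F1 and inbred libraries were sequenced in separate pools, a pool difference and a difference between F1s and inbreds cannot be told apart. The 17 F1 stem libraries gave 123 reads, whereas the maize inbreds gave 9 reads in 10 libraries, 8 of them in B73 and 1 in Ki3, and the teosinte inbreds gave 0 reads in 8. Pooled levels were 3.52 CPM in F1 stems and 0.254 CPM in inbred stems. The inbred level divides by the reads at the sites of all crosses of each inbred, so these levels are not on one scale. The F1s of CML103xTIL14 had 34 reads, those of Ki3xTIL14 and Mo17xTIL14 had 17 each and those of Oh43xTIL10 had 15, and in all 4 of these crosses both parents had 0. With 3 reads as the floor in each parent, these F1s were at least 3.83-fold, 2.22-fold, 2.14-fold and 2.12-fold higher than the mean of their parents. B73xTIL14 had 27 F1 reads against 3 in B73 and 0 in TIL14, a ratio of 7.95 (exact 95% counting interval 2.45 to 40.9). B73xTIL09 had 6 against 5 in B73 and 0 in TIL09, a ratio of 1.92 with an interval of 0.489 to 7.96 that includes equality. Floors and intervals cover counting error only, and they treat depths at neighbouring sites as independent, which makes them too narrow.

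The F1 was thus higher in 6 of 6 crosses with at least 10 reads in F1 and parents together. The mean log2 ratio in them was 3.19 ± 1.33 (SD, n = 6) with 0.5 reads added, and 1.53 ± 0.80 with the 4 crosses at their lower bound. These 4 crosses passed the minimum through the F1 alone, so the minimum favoured a high F1, and the exact sign-flip p of 0.03125, the smallest that 6 crosses allow, is not free of that choice. Over all 9 crosses with a zfl2 site and no minimum, the F1 was higher in 8 and the mean was 2.46 ± 1.61 (SD, n = 9, exact sign-flip permutation, two-sided p = 0.0078). The exception was Ki3xTIL09, with 1 F1 read against 1 in Ki3 and 0 in TIL09. Mo17xTIL09 and Oh43xTIL15 counted as higher on 3 F1 reads each, no more than the floor of 3 reads, against 0 in both parents. Their ratios and those of the 4 crosses at their bound were set by the 0.5 reads added, so the mean and p over 9 crosses depend on it. The crosses share parents, 4 of them the TIL14 libraries, and the test takes them as independent. With the minimum of 10 reads, the mean was 2.25 over 2 crosses without those of TIL14. Without replicate 1 it was 2.67 over 4, and both sets are too few for an exact p below 0.05. As background, 9.60% of 17976 genes had the F1 above the mean of the parents in each of 6 or more crosses in stem, but 1.42% of 17285 in ear. The stem ratio exceeded the ear ratio by 3.44 ± 1.52 log2 units (SD, n = 6) in the crosses with at least 10 reads. Over all 9 crosses it did so in 9 of 9, by 2.55 ± 1.83 (exact sign-flip permutation, two-sided p = 0.0039, the smallest possible). This too depends on the 0.5 reads added where both parents had 0 stem reads. In leaf only CML103xTIL14 had 10 reads, with 16 in the F1 against 0 in CML103 and 1 in TIL14.

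Other genes also differed between F1 and inbred stems, in both directions. Over 18 listed marker and floral genes the log2 ratio of F1 to mean parent ran from -3.04 to 2.38. None was at or above zfl2 on the same measure, where zfl2 was at 3.19. That zfl2 value depends on the reads added where both parents had none. Above the 1.53 of zfl2 at its lower bound lay zcn6 (2.38), zag1 (1.58) and zmm24 (1.57). The zag1 value came from 18 F1 and 3 parental reads in 2 crosses, and that of zmm24 from 17 and 4 in 1 cross. Among the meristem genes kn1, which keeps meristem cells undifferentiated, was at 0.20 and lg3 at -1.60. The leaf marker pdk1, a C4 cycle enzyme, was at -3.04, and me3, another, at 1.20. Of the floral genes si1 was at -2.51. The part these differences in marker levels have in the zfl2 difference was not tested.

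**Figure D4:**
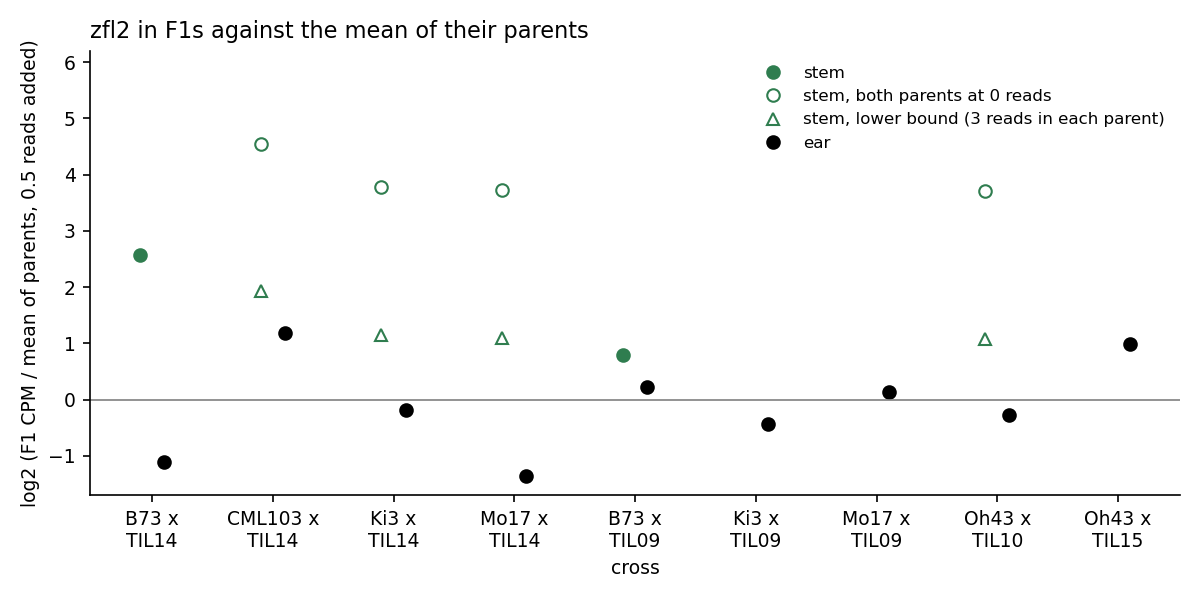
Log2 ratio of zfl2 CPM in the F1 to the mean of its parents (0.5 reads added) for each cross in stem (green) and ear (black); open circles mark stem values whose parents both had 0 reads, and triangles the lower bounds for them. The stem values of 6 crosses lie above 0, and the ear values run from -1.36 to 1.18.

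The duplicates were compared directly in ears of the inbreds with sites in both genes, CML103 and Ki3, per site. zfl1 had 14 reads per site and zfl2 had 16 in CML103, and zfl1 had 16 and zfl2 had 8 in Ki3. The mean log2 ratio of zfl1 to zfl2 was 0.39, and 2 inbreds cannot give an exact p below 0.5. It became -0.12 with the deepest site of each gene and -0.48 without replicate 1. No order of the duplicates in ear can be given from these values. Both had few or no reads in inbred stem and leaf, where zfl1 had 0 in 10 libraries and zfl2 had 9 reads in stem and 10 in leaf, each over 18 libraries.

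The genes whose levels followed zfl2 most closely over F1 libraries were found by Pearson correlation of log2 CPM centred within crosses, over 12370 genes. They were GRMZM2G440916 (r = 0.920, 42 libraries), GRMZM2G155312 (0.915, 49), GRMZM2G047949 (0.915, 44), GRMZM2G005082 (0.915, 49) and GRMZM2G463726 (0.911, 44). The libraries span the 3 tissues, so the correlations share the difference between tissues. Their ear against leaf differences ran from 0.81 (GRMZM2G155312) to 2.94 (GRMZM2G463726) log2 units, with zfl2 at 3.02. For zfl1, with 11 F1 libraries, no gene met the minimum of 40 libraries.

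Among the floral genes, the F1 alleles in ear were called different by edgeR for 1 gene of the 14 tested (against 5.14% of all genes), zagl1, whose maize allele was 0.54 log2 units higher (adjusted p = 0.000372). In stem 0 of 5 tested were called (4.32% of all genes), and tb1, which is outside that list, was not called in either tissue. zfl2 was likewise not called in ear or in stem.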

How the data were processed

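The deposited files hold counts: for each library and lane, the authors counted the reads of the maize and of the teosinte allele at each segregating site (F1s), or the reads of an inbred at the sites of its crosses, not normalized. Per the paper's methods, the authors built a pseudo-transcriptome for each parent from the B73 reference AGPv2 and aligned reads to both with perfect matches, using Bowtie, and used only sites that genomic reads covered in each parent. The libraries are strand-specific, and reads that match both duplicates cannot be told apart from these files.

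Here the 448 files were read, and 29 crosses were used (172 F1 and 88 inbred libraries). The 8 F1 libraries of 2 further crosses, without a zfl site, were left out. A position present in several transcripts entered through the deepest of them, and lanes were summed. F1 and parent ratios used exact binomial and Fisher's exact tests with Storey q-values at 0.005 and a depth minimum of 100, as in the study. edgeR 4.0.16 quasi-likelihood tests (limma 3.58.1, R 4.3.3) took crosses or libraries as units, with Benjamini-Hochberg adjusted p at 0.005, and DESeq2 1.42.0 was an alternative. The SE printed with edgeR values was back-calculated, as the size of the log2 difference divided by the square root of the F statistic. Single values used exact sign-flip permutations with 0.5 reads added. Scripts ran in python 3.11.15 with scipy 1.17.1 and were tested on simulated data. Replicate libraries differed beyond counting error (lowest chi-square per gene 1.45 over 138 pairs, where 1 is counting error), so none was counted as a duplicate, and they are labelled as biological replicates. Exceptions to the labels are 2 ear libraries of Oh43xTIL10, both labelled replicate 1, and the paper lists 1 ear replicate for this cross. Whether they come from the same plant cannot be told, and both were kept as libraries.

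The named genes were both members, up to 5 genes with the most similar pattern for each (at least 100 F1 reads and 40 libraries), and the listed floral genes and tissue markers that the reference table pairs with an identifier. Members, lists, tests and alternatives were chosen with earlier results of these data known. Other alternatives left out replicates, crosses or filters, or changed the sites counted, the scaling and the tool.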

Additional observations from a re-analysis of the deposited data

Results flagged for a closer look

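For zfl2, 9 groups of 4 to 9 values were checked for a value far from the others, and chance flags about 1 in 20 such groups. Of the 4 ear libraries of B73xTIL14, one had a maize share of 88.9% (8 of 9 reads), while the other three ran from 58.8% to 62.5%. CML103xTIL14 stood apart among the 9 crosses in ear, at 16.2 CPM per site against a median of 3.74, and in leaf, at 2.54 against a median of 0. In stem no cross stood apart in level.

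The maize share in ear differed among the 4 crosses of TIL14 (exact permutation over 10 libraries, p = 0.0270), which share the teosinte parent and the sites C961T and C1018G. It was 65.5% in B73xTIL14, 61.9% in Mo17xTIL14, 39.1% in Ki3xTIL14 and 34.6% in CML103xTIL14. The F1 level against the mean of the parents differed between tissues, by 3.44 log2 units for stem minus ear in 6 of 6 crosses (exact sign-flip p = 0.03125, the smallest possible). The read minimum behind these 6 was passed by 4 of them through the F1 stems alone. Without it the difference was 2.55 in 9 of 9 crosses (exact sign-flip p = 0.0039).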

How the results depend on the processing

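The parental ratio of zfl2 kept its direction under all 16 alternatives (1.49 to 2.24) and lost its call only without the crosses of TIL14 (2.04), where the depth was below the minimum. The trans difference behaved likewise, at 0.61 without TIL14. The F1 allele ratio in ear passed the threshold without CML103xTIL14 (0.86), and turned to -0.031 without the crosses of B73. It also passed at a false discovery rate of 0.05 (0.33), although the exact binomial p before adjustment was 0.0628. It ranged from 0.39 to 0.51 without a replicate. Weighting crosses once gave 1.21 ± 1.95 (SD, n = 9, exact sign-flip p = 0.0938), or 0.62 with crosses lacking teosinte reads at their bound. The stem ratio by edgeR turned to -0.26 without TIL09 and -0.029 without TIL10. DESeq2 over all crosses gave tissue differences of 1.07 (ear against leaf), 0.71 (ear against stem) and 0.36 (stem against leaf), none called. Without a replicate, ear against stem ranged from 1.04 to 1.16 and stem against leaf from 1.73 to 2.13. The F1 against the mean of parents in ear turned to 0.13 without TIL14. In stem it missed the threshold with fewer crosses: 2.97 at the deepest site, 2.67 to 3.89 without a replicate, 2.25, 3.67 and 3.08 without TIL14, TIL09 and TIL10, and 2.91 without CML103xTIL14. The ratio of zfl1 to zfl2 per site was -0.12 at the deepest sites and -0.48 to 0.61 without a replicate. An allele ratio of zfl1 against zfl2 could not be computed, as no cross has sites in both.

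Replicate numbers did not pair inbred libraries (median correlation of deviations 0.0088 over 54 ear pairs). With a replicate block the parental difference was 1.68 (adjusted p = 0.0582), the F1 allele ratio 0.45 in ear and 0.03 in stem, and the tissue differences 3.01, 1.04 and 1.97, and no call on zfl2 changed. Library pairs as blocks moved the genes called for F1 alleles to 2877 in ear (909 without) and 1990 in stem (797 without).

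Genes called for parents in ear numbered 858, but 118 with inbreds summed, 70 to 83 without a replicate and 1375 by DESeq2. For F1 alleles they fell to 445 in ear and 464 in stem at the deepest site, 404 and 407 without B73, 28 and 7 in the 9 zfl2 crosses (374 and 319 by DESeq2), at least 525 and 234 without a replicate, and 328 in stem with all crosses. On summed depth the deepest site gave 4862 for F1s (9550), 5876 for parents (11409) and 3311 for the trans test (8001), which rose to 14732 with scaling by total depth. In the 9 crosses, tissue calls fell to 9620 by DESeq2 for ear against leaf (15259), 5617 for ear against stem (11623; 5583 by DESeq2, 7257 without replicate 1) and 7408 for stem against leaf (12872; 7223 by DESeq2). The alternatives that drop the read minimum, leave out a teosinte parent, CML103xTIL14 or the crosses without a zfl2 site were chosen after seeing the data. Depth limits zfl1 throughout and zfl2 in leaf and in inbred stems.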
